A study of Mus musculus with 6 samples.

Results

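The genes described are 32 members of the sterol and fatty acid synthesis programme under the sterol regulatory element-binding proteins (SREBPs), out of 53647 genes in the deposited table. They were chosen by gene name for their place in the pathway, with earlier results of these data known. They are 8 enzymes making isoprenoid precursors, 12 turning these into sterols, 5 regulators of the SREBPs, and 7 enzymes of fatty acid synthesis and desaturation. Their RNA was measured by bulk RNA-seq in macrophages from pancreatic ductal adenocarcinoma grown orthotopically, that is in the pancreas itself, in C57BL/6 mice. The macrophages were sorted by their expression of Cxcr4, a chemokine receptor, which gave 3 libraries of Cxcr4+ cells and 3 libraries of Cxcr4- cells. All 6 libraries are thus tumour macrophages of the same mouse strain and model. The labels enter Cxcr4+ and Cxcr4- as a genotype, although the protocol describes a sort of cells. The tumour cells implanted, the age and sex of the mice, and any pooling of animals are not stated in the labels. Whether each library stands for a mouse of its own is not stated either, so the p-values below speak only of the spread from library to library, which may be technical.

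SREBPs are transcription factors made as precursors in the membrane of the endoplasmic reticulum. When sterols are scarce, the escort protein Scap carries them to the Golgi, where proteases release the active part, which enters the nucleus and switches on genes of sterol and fatty acid synthesis. When sterols are plentiful, the Insig proteins hold Scap in the endoplasmic reticulum. Macrophages use the programme to make membrane lipid and to balance the cholesterol they take up from dying cells and debris.

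The libraries held 46444934 to 55740671 estimated counts each, and all 32 members were among the 16031 genes that passed the filter on low counts. Cxcr4 itself had 9.18, 9.04 and 9.59 FPKM (fragments scaled to transcript length and library size) in Cxcr4+ macrophages, against 8.56, 5.97 and 7.73 FPKM in Cxcr4- macrophages. Every Cxcr4+ library was above every Cxcr4- library, but the log2 fold change of 0.27 did not pass the test (edgeR adjusted p = 0.999). Of the 8 macrophage markers, Cd68, Csf1r, Lyz2, Adgre1, Itgam and Cd14 were at 16.7 FPKM or more in every library, with Cd68 at 1024 to 1247 FPKM. Fcgr1, at 4.79 to 10.9 FPKM, and Mertk, at 1.33 to 2.02 FPKM, were lower. Summed, the 8 were at 7953 to 9740 FPKM in Cxcr4+ and 7158 to 8341 FPKM in Cxcr4- macrophages. Most of this sum was Lyz2, at 5337 to 7797 FPKM. Markers of other cell types summed to far less, in part because Lyz2 was so high. The 8 fibroblast markers summed to 16.9, 3.28 and 3.97 FPKM in Cxcr4+ and 1.89, 2.15 and 3.14 FPKM in Cxcr4- macrophages, with Lum at 0 in all 6 libraries. The 7 epithelial markers summed to 1.74 to 3.31 FPKM in Cxcr4+ and 3.43 to 6.00 FPKM in Cxcr4- macrophages. The 8 neutrophil markers summed to 6.66 to 9.34 FPKM in Cxcr4+ and 7.13 to 10.2 FPKM in Cxcr4- macrophages. Among them S100a8 had 4.99 to 8.01 FPKM in Cxcr4+ and 5.55 to 8.08 FPKM in Cxcr4- macrophages. Csf3r had 1.06 to 1.44 FPKM over all 6 libraries, while S100a9 was at 0. The lymphocyte, endothelial and acinar lists stayed at or below 0.726 FPKM in every library. Adipocytes are rich in this pathway. Their 5 markers summed to 0.00847 to 0.390 FPKM in Cxcr4+ macrophages and to 0 in all Cxcr4- libraries, and the defining markers Adipoq, Cidec and Lep were at 0 in all 6.

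None of the 32 members passed an adjusted p of 0.05 with edgeR's quasi-likelihood test, and the smallest adjusted p among them was 0.953. Among all genes tested, 5 passed, which is 0.0312%. At an unadjusted p under 0.05, 2 members passed, Fdft1 and Srebf2, both lower in Cxcr4+ macrophages, where 4.85% of all genes tested passed. DESeq2 likewise called 0 members at an adjusted p of 0.05, where 0.406% of all genes passed. At an unadjusted p under 0.05 DESeq2 gave 2 members, but the like share over all genes was not computed. The groups' FPKM values did not overlap for 7 members, and all 7 were lower in Cxcr4+ macrophages: Mvd, Fdft1, Lss, Tm7sf2, Srebf1, Srebf2 and Scd2. These are 21.9% of the members, while 4.87% of all genes tested lay apart with Cxcr4+ lower. No member lay apart with Cxcr4+ higher, where 5.5% of all genes did. These shares are descriptive, as the members were chosen with earlier results of these data known. The exact permutation test of each of the 7 gave a two-sided p of 0.1, the smallest that 3 libraries against 3 allow. Groups that do not overlap always give this value, so it adds nothing to the separation by which the 7 were picked. The log2 fold change (Cxcr4+ minus Cxcr4-) was negative for 20 members, or 62.5%, and for 49.9% of all genes tested. Its median was -0.06 over the members and 0.00 over all genes tested, with members from -1.07 to 0.23. In bulk libraries, fewer cells of a type and less RNA per cell cannot be told apart.

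**Figure D1:**
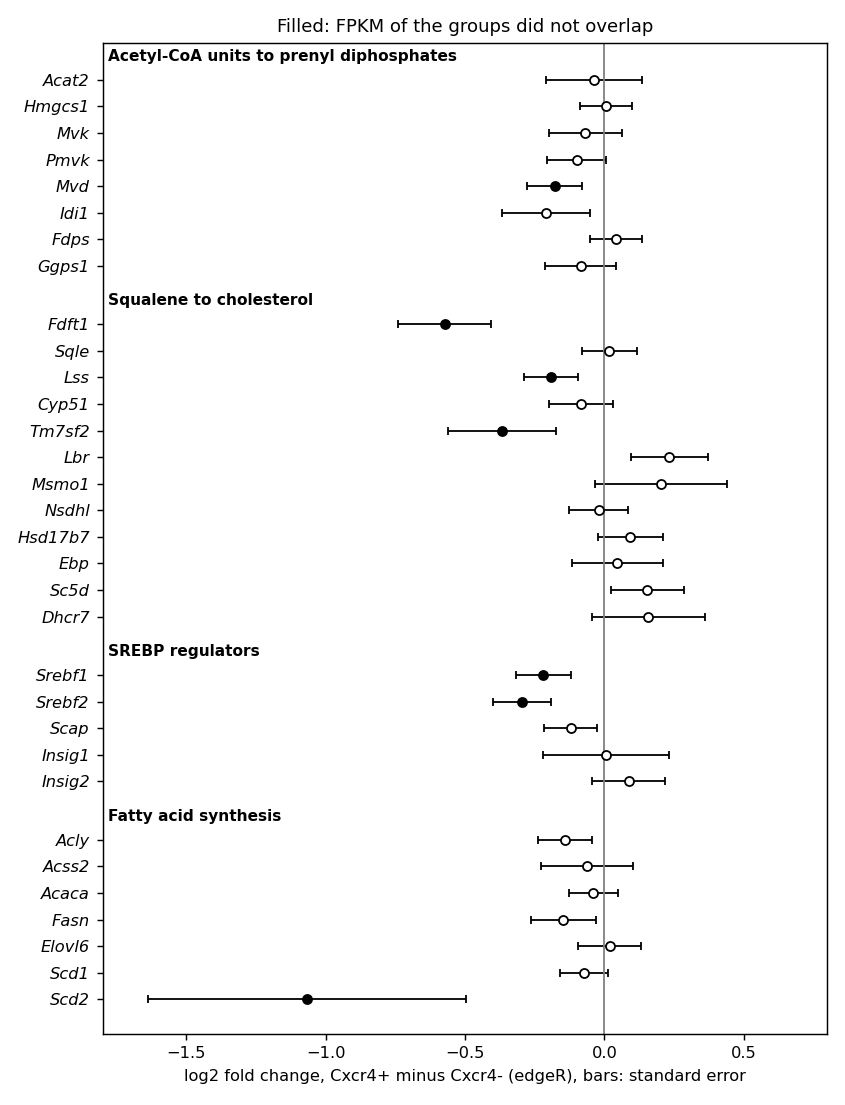
Log2 fold changes (Cxcr4+ minus Cxcr4-) of the 32 members from edgeR, grouped by pathway step, with bars of 1 standard error. Filled points mark the 7 members whose FPKM values did not overlap between the groups, all left of 0, and Scd2, at -1.07, has the widest bar.

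The promoters of 4 members that lay apart with 1 window each are shown for the motifs they hold. That of Hmgcs1 is also shown, as the only window among the members to match the SRE letters given below. RefSeq windows on GRCm38.p6, from 250 bases before to 50 bases after each start site, were at hand for 27 of the 32 members; Scd1, Scd2, Sqle, Fdft1 and Fdps had none, and Srebf1, which also lay apart, had 3 windows at separate start sites, which are not printed. The windows below are on chromosome 15 for Srebf2 (chr15:82147019-82147318, + strand), 8 for Mvd (chr8:122443373-122443672, - strand), 10 for Lss (chr10:76531355-76531654, + strand), 19 for Tm7sf2 (chr19:6067801-6068100, - strand) and 13 for Hmgcs1 (chr13:119690101-119690400, + strand). Each is written 5′ to 3′ along its gene. Capitals mark a sterol regulatory element (SRE, TCACNCCAC, bound by SREBPs) and CCAAT boxes (CCAAT, bound by NF-Y), searched on both strands, so that ATTGG is a CCAAT box on the other strand.
Srebf2: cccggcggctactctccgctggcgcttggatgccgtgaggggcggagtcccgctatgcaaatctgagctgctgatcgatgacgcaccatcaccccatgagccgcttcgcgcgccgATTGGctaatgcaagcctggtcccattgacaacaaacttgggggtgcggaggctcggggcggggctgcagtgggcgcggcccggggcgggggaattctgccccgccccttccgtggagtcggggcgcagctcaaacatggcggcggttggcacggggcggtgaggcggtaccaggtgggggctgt
Mvd: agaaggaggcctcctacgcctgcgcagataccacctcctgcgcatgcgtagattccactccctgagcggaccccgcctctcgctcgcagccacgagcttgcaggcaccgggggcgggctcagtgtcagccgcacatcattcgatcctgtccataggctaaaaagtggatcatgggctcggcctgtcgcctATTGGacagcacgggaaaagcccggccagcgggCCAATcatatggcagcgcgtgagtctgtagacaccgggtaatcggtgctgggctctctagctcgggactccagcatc
Lss: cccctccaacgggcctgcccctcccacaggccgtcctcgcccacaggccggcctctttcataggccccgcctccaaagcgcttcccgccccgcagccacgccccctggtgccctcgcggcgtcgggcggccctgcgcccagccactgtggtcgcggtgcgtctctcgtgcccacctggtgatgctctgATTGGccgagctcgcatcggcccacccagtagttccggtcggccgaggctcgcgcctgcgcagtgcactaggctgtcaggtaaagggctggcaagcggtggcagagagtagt
Tm7sf2: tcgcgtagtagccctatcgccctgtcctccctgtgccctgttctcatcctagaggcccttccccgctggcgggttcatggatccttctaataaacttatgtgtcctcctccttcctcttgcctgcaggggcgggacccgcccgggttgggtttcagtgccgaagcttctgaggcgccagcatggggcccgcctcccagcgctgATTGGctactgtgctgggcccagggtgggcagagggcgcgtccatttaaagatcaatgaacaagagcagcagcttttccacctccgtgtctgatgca
Hmgcs1: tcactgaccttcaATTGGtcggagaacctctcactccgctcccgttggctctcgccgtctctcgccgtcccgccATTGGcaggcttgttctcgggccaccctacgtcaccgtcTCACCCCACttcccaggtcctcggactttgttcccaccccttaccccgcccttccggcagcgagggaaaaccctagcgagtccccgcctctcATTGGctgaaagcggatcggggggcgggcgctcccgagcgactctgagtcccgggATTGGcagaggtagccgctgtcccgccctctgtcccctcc

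An SRE by these letters was present in 1 of the 27 members with a window, Hmgcs1, where TCACCCCAC starts 137 bases before the start site, that is 3.7% of the members with a window, and in 1.39% of the 10479 tested genes with a window. A CCAAT box was present in 23 of the 27 members, or 85.2%, and in 43.2% of the tested genes with a window. The GC box GGGCGG, bound by Sp1, was in 22 members, or 81.5%, and in 66.1% of tested genes with a window. The 4 windows of the lower-lying genes Srebf2, Mvd, Lss and Tm7sf2 each hold at least 1 CCAAT box, as does the window of Hmgcs1, whose level hardly differed between the groups. Of the 3 windows of Srebf1, 2 hold a CCAAT box and 1 holds GC boxes without a CCAAT box. A match is a run of letters and not a shown binding site, and other spellings of the SRE were not searched.

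Both SREBP genes were lower in every Cxcr4+ library than in any Cxcr4- library, while the genes that carry and retain their products overlapped. Srebf2 encodes the SREBP known mainly for sterol genes, and lies at chr15:82031382-82089580 (GRCm39, + strand). It had 27.7, 27.5 and 30.1 FPKM in Cxcr4+ macrophages, against 34.0, 32.9 and 37.5 FPKM in Cxcr4- macrophages. The highest Cxcr4+ library was thus below the lowest Cxcr4- library. The means were 28.4 ± 1.43 FPKM in Cxcr4+ and 34.8 ± 2.42 FPKM in Cxcr4- macrophages (SD, n = 3 each), a log2 fold change of -0.30 ± 0.10 (SE) with an edgeR adjusted p of 0.998. Srebf1, whose products include the SREBP known mainly for fatty acid genes, lies at chr11:60089915-60113407 (GRCm39, - strand). It had 7.32, 7.95 and 7.04 FPKM in Cxcr4+ macrophages, against 9.22, 8.54 and 8.05 FPKM in Cxcr4- macrophages. The groups lay apart by a narrow gap, between the second Cxcr4+ library and the third Cxcr4- library. The log2 fold change was -0.22 ± 0.10 (SE), with an edgeR adjusted p of 0.999. The table does not separate the isoforms of Srebf1. The gene overlaps 109 bases of Rai1, on the opposite strand and with 461 to 1138 counts per library, and Srebf2 contains Gm49502, which had 33 to 80 counts beside the 11595 to 14120 of Srebf2. Srebf2 was the more abundant per length in every library: its FPKM was 3.79, 3.46 and 4.27 times that of Srebf1 in Cxcr4+ and 3.69, 3.85 and 4.66 times in Cxcr4- macrophages. This ratio did not differ between the groups beyond its spread (exact permutation test, two-sided p = 0.6).

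Scap, the escort, had 5.86, 7.32 and 5.90 FPKM in Cxcr4+ macrophages, against 6.75, 7.02 and 6.85 FPKM in Cxcr4- macrophages. The second Cxcr4+ library was the highest of all and the other two were the lowest, and the log2 fold change was -0.12 ± 0.09 (SE; edgeR adjusted p = 0.999). Insig1, an anchor of Scap and itself a target of the SREBPs, had 20.8, 13.3 and 19.9 FPKM in Cxcr4+ macrophages, against 18.4, 14.6 and 20.6 FPKM in Cxcr4- macrophages. The library numbered 2 was the lowest of its group on both sides, and the groups overlapped throughout (log2 fold change 0.01 ± 0.23 SE, edgeR unadjusted p = 0.977). Insig2, the other anchor, had 3.38, 4.30 and 4.03 FPKM in Cxcr4+ macrophages, against 3.32, 4.16 and 3.501 FPKM in Cxcr4- macrophages. Its libraries numbered 2 were the highest of each group, the reverse of Insig1, and its log2 fold change was 0.09 ± 0.13 (SE; edgeR unadjusted p = 0.522). The FPKM of Insig1 was 6.15, 3.09 and 4.93 times that of Insig2 in Cxcr4+ and 5.53, 3.51 and 5.89 times in Cxcr4- macrophages (exact permutation test of the log2 ratio, two-sided p = 0.7).

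**Figure D2:**
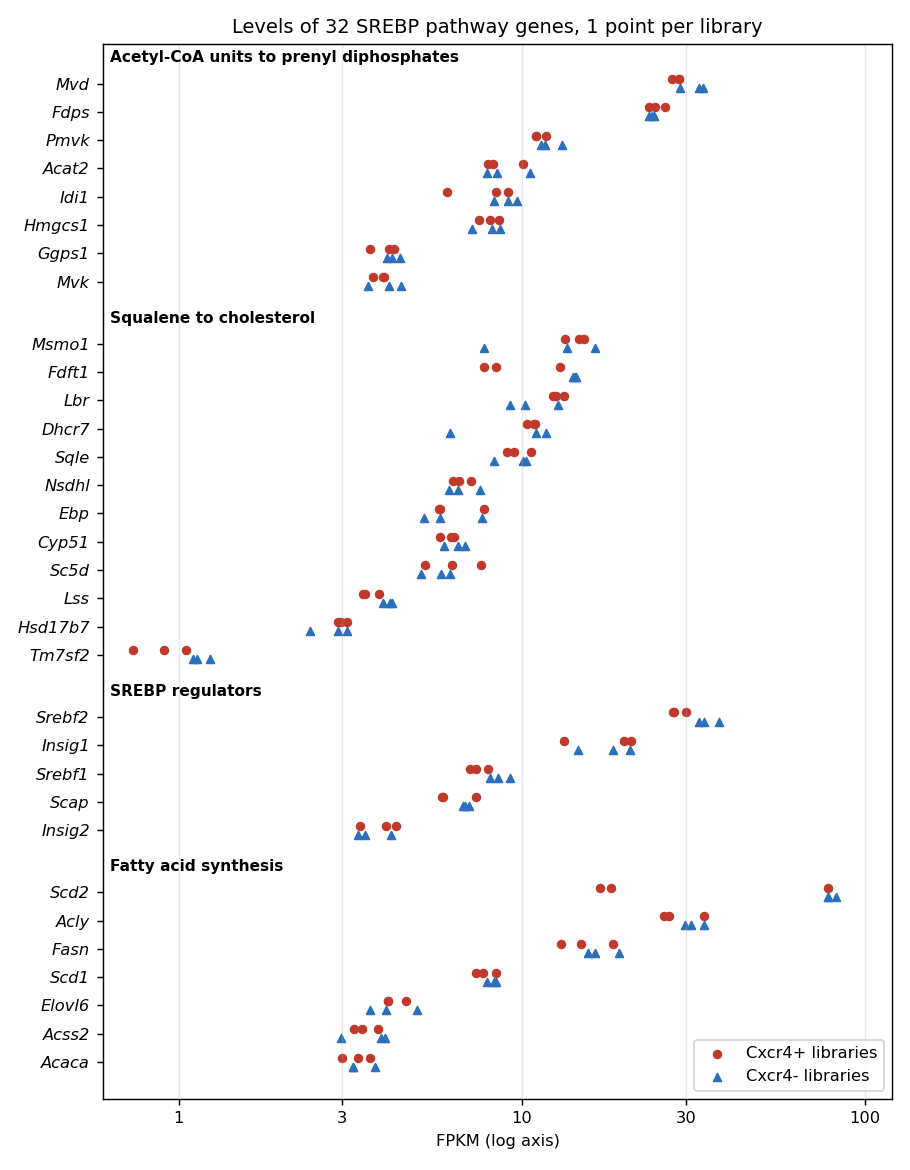
FPKM of the members in each library on a log axis, with red circles for Cxcr4+ libraries above blue triangles for Cxcr4- libraries, grouped by pathway step. Scd2 shows 2 Cxcr4+ points, at 16.9 and 18.2 FPKM, far below its other 4 points of 77.6 to 82.1 FPKM.

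Of the 8 enzymes that lead from acetyl-CoA to the isoprenoid diphosphates, 0 passed the test, 1 (Mvd) lay apart and 7 overlapped. Their median log2 fold change was -0.08, with 2 positive and 6 negative. Mvd, which decarboxylates mevalonate diphosphate to isopentenyl diphosphate (chr8:123160340-123170161, GRCm39, - strand), was the most abundant of them. It had 27.3, 28.6 and 28.8 FPKM in Cxcr4+ macrophages, against 33.8, 32.7 and 28.9 FPKM in Cxcr4- macrophages. The third Cxcr4- library sat just above the highest Cxcr4+ library, and the other two were well above it. The log2 fold change was -0.18 ± 0.10 (SE), with an edgeR adjusted p of 0.999. Idi1, the isomerase of the next step, had 6.03, 8.41 and 9.11 FPKM in Cxcr4+ macrophages, against 9.10, 9.70 and 8.31 FPKM in Cxcr4- macrophages. A single Cxcr4+ library, the first, was below the rest, and the log2 fold change was -0.21 ± 0.16 (SE; edgeR adjusted p = 0.999). It was -0.06 without that library.

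Hmgcs1, the synthase that makes HMG-CoA, had 7.47, 8.56 and 8.08 FPKM in Cxcr4+ macrophages, against 7.15, 8.62 and 8.20 FPKM in Cxcr4- macrophages. The groups were nearly superimposed. Fdps, which makes farnesyl diphosphate, had 24.5, 23.5 and 26.0 FPKM in Cxcr4+ and 23.5, 23.9 and 24.3 FPKM in Cxcr4- macrophages, and the groups overlapped. The thiolase Acat2, the kinases Mvk and Pmvk, and Ggps1, which makes geranylgeranyl diphosphate, had log2 fold changes between -0.10 and -0.04. Summed over the 8 enzymes, the level was 92.4, 95.7 and 102 FPKM in Cxcr4+ and 101, 104 and 100 FPKM in Cxcr4- macrophages.

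The 12 enzymes that turn farnesyl diphosphate into sterols did not share a direction: 7 log2 fold changes were positive and 5 negative, with a median of 0.03 and no adjusted call. The median turned negative when Cxcr4+ replicate 2 was left out, at -0.025, or Cxcr4- replicate 1, at -0.045. Fdft1, squalene synthase, which commits farnesyl diphosphate to sterols (chr14:63382599-63417027, GRCm39, - strand), had 8.41, 12.9 and 7.74 FPKM in Cxcr4+ macrophages, against 14.3, 14.1 and 14.3 FPKM in Cxcr4- macrophages. The Cxcr4- libraries were tight, and 2 of the Cxcr4+ libraries were far below them while the other, replicate 2, was close. The means were 9.69 ± 2.80 FPKM in Cxcr4+ and 14.2 ± 0.141 FPKM in Cxcr4- macrophages (SD, n = 3 each). The log2 fold change was -0.57 ± 0.17 (SE), with an unadjusted p of 0.0101 and an adjusted p of 0.953 by edgeR. The gene overlaps 774 bases of Ctsb on the opposite strand, a cathepsin with 163460 to 269001 counts per library against 1880 to 3337 for Fdft1. Whether the counting used strand is not stated, so reads of the shared stretch could be assigned to either gene. Ctsb counts were 269001, 211432 and 258218 in Cxcr4+ and 212673, 163460 and 191909 in Cxcr4- macrophages, so its 2 highest libraries were the 2 in which Fdft1 was lowest, and their part in the result was not tested.

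Lss, which closes the sterol ring to form lanosterol (chr10:76367422-76392972, GRCm39, + strand), had 3.83, 3.48 and 3.44 FPKM in Cxcr4+ macrophages, against 3.94, 4.17 and 4.14 FPKM in Cxcr4- macrophages. The groups lay apart with the first library of each nearest the gap (log2 fold change -0.19 ± 0.10 SE, edgeR adjusted p = 0.999). Tm7sf2, a sterol reductase (chr19:6112851-6117880, GRCm39, - strand), had 0.735, 0.909 and 1.05 FPKM in Cxcr4+ macrophages, against 1.23, 1.13 and 1.10 FPKM in Cxcr4- macrophages. It was the least abundant member, with 209 to 313 counts per library, and the groups were separated by a small gap (log2 fold change -0.37 ± 0.19 SE, edgeR adjusted p = 0.999). The gene overlaps 9 bases of Vps51 on the same strand, which had 1534 to 2017 counts per library. In all, 9 members overlap another gene with a total of at least 100 counts. Lbr, the lamin B receptor, catalyses the same reduction as Tm7sf2 and lay on the other side of 0. It had 12.5, 13.2 and 12.3 FPKM in Cxcr4+ macrophages, against 10.2, 9.23 and 12.7 FPKM in Cxcr4- macrophages. The third Cxcr4- library was as high as the Cxcr4+ libraries, so the groups overlapped, and the log2 fold change was 0.23 ± 0.14 (SE; edgeR adjusted p = 0.999). Leaving out Cxcr4- replicate 2 gave 0.11, and leaving out Cxcr4- replicate 3 gave 0.38.

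Msmo1, the oxidase that acts on the methyl groups at the fourth carbon of the sterol, was the most abundant enzyme of this step. It had 14.7, 13.3 and 15.1 FPKM in Cxcr4+ macrophages, against 7.75, 13.5 and 16.3 FPKM in Cxcr4- macrophages. The first Cxcr4- library alone was low, and the other libraries of both groups shared a range (log2 fold change 0.20 ± 0.24 SE, edgeR adjusted p = 0.9997). Without that library the log2 fold change was -0.03. Dhcr7, the reductase that yields cholesterol at the end of the pathway, had 10.8, 10.9 and 10.4 FPKM in Cxcr4+ macrophages, against 6.16, 11.7 and 11.0 FPKM in Cxcr4- macrophages. The same first Cxcr4- library was the low one. The squalene epoxidase Sqle, the lanosterol demethylase Cyp51, the sterol enzymes Nsdhl, Hsd17b7 and Ebp and the desaturase Sc5d had log2 fold changes between -0.08 and 0.15, and all their groups overlapped. Summed over all 20 enzymes of both sterol steps, the level was 179, 193 and 189 FPKM in Cxcr4+ and 179, 199 and 198 FPKM in Cxcr4- macrophages.

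**Figure D3:**
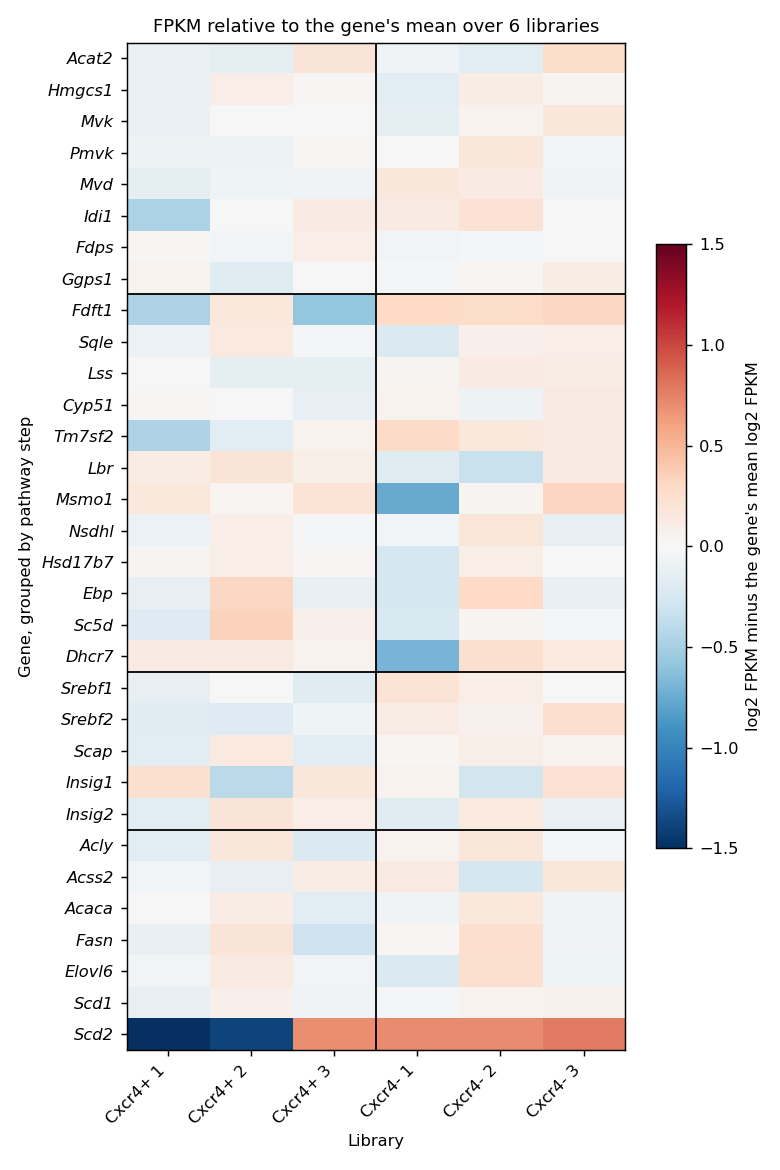
Heat map of log2 FPKM of each member minus its mean log2 FPKM over the 6 libraries, with members as rows grouped by step and Cxcr4+ libraries left of Cxcr4- libraries. Red is above and blue below the mean. The low entries of Scd2 in Cxcr4+ replicates 1 and 2, of Fdft1 in Cxcr4+ replicates 1 and 3, and of Msmo1 and Dhcr7 in Cxcr4- replicate 1 stand out.

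Among the 7 enzymes of fatty acid synthesis, 0 passed the test, Scd2 lay apart between the groups and the other 6 overlapped, and the median log2 fold change was -0.07, with 1 positive and 6 negative. Scd2 is a stearoyl-CoA desaturase, which puts the double bond into stearate to make oleate (chr19:44282113-44295303, GRCm39, + strand). It had 16.9, 18.2 and 77.6 FPKM in Cxcr4+ macrophages, against 78.0, 77.9 and 82.1 FPKM in Cxcr4- macrophages. The Cxcr4+ libraries lay on separate levels: replicates 1 and 2 were low, and replicate 3 reached almost the lowest Cxcr4- library. The counts behind these values were 5812, 5826 and 24987 in Cxcr4+ and 24198, 23770 and 23488 in Cxcr4- macrophages. The range within Cxcr4+ macrophages was 4.60-fold in FPKM, and the part of counting and read assignment in it was not tested. The means were 37.6 ± 34.7 FPKM in Cxcr4+ and 79.3 ± 2.35 FPKM in Cxcr4- macrophages (SD, n = 3 each), a log2 fold change of -1.07 ± 0.57 (SE) with an edgeR adjusted p of 0.999. Without Cxcr4+ replicate 3, the Cxcr4+ library in which Scd2 was high, the log2 fold change was -2.21 with an edgeR adjusted p of 0.00699. In that setting 1 gene was called over all genes tested, Scd2 itself. It was the only call of a member under any of the 15 alternatives. The small p thus rests on leaving out the Cxcr4+ library that differed from replicates 1 and 2. The adjusted p of Scd2 under every other alternative was 0.507 or higher, and its log2 fold change ranged from -2.21 to -0.72. In the same libraries the 8 fibroblast markers summed to 16.9, 3.28 and 3.97 FPKM in Cxcr4+ and 1.89, 2.15 and 3.14 FPKM in Cxcr4- macrophages. Of the 5 adipocyte markers, Adipoq, Cidec and Lep were at 0 in all 6 libraries, Plin1 was above 0 in Cxcr4+ replicate 3 alone at 0.00847 FPKM, and Cfd had 0.0651, 0.390 and 0 FPKM in Cxcr4+ macrophages, against 0 in all Cxcr4- macrophages. Cfd was thus above 0, though near it, in the libraries in which Scd2 was low and at 0 in the others. The 7 epithelial markers summed to 1.74, 2.92 and 3.31 FPKM in Cxcr4+ and 3.43, 6.00 and 6.00 FPKM in Cxcr4- macrophages. Their sum was thus lower in every Cxcr4+ library, as was Scd2. The part of the fibroblast, adipocyte and epithelial markers in the result was not tested.

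**Figure D4:**
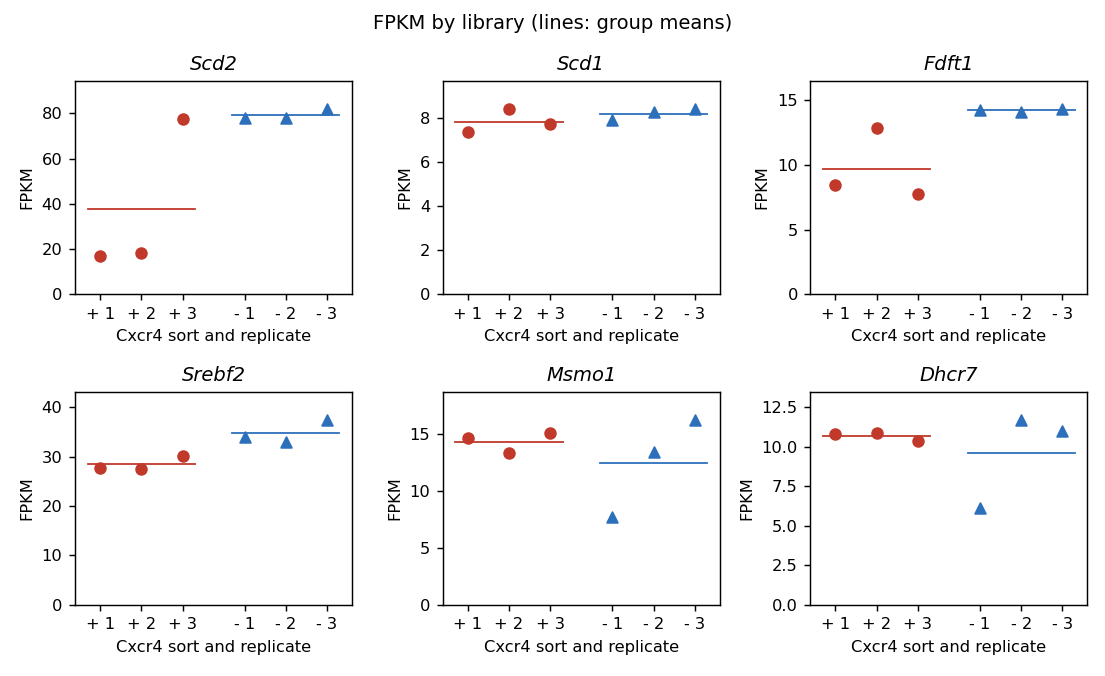
FPKM of Scd2, Scd1, Fdft1, Srebf2, Msmo1 and Dhcr7 in each library, on linear axes that start at 0, with Cxcr4+ libraries left of Cxcr4- libraries and lines at the group means. In Scd2 the Cxcr4+ mean of 37.6 FPKM lies where no library is, while in Scd1 all 6 libraries sit at a like level.

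A range of this size within a group was uncommon in these libraries. Of 6094 genes with at least 1000 counts in every library, 188, or 3.09%, ranged at least 2-fold within a group, and 17, or 0.279%, at least 4-fold. Of the 26 members with at least 1000 counts in every library, 2 ranged at least 2-fold within a group, Scd2 in Cxcr4+ and Msmo1 in Cxcr4- macrophages. Scd1, the neighbouring desaturase on the same chromosome (chr19:44382894-44396148, GRCm39, - strand), had 7.37, 8.41 and 7.71 FPKM in Cxcr4+ macrophages, against 7.91, 8.26 and 8.38 FPKM in Cxcr4- macrophages. It was at a like level in all 6 libraries, also where Scd2 was low. The FPKM of Scd2 was accordingly 2.29, 2.16 and 10.1 times that of Scd1 in Cxcr4+ and 9.87, 9.43 and 9.79 times in Cxcr4- macrophages (exact permutation test of the log2 ratio, two-sided p = 0.4). The paralogs Scd3 and Scd4 had at most 194 and 19 counts in any library, and reads that fit several of these genes could be split among them.

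Acly, which makes cytosolic acetyl-CoA from citrate, had 26.7, 33.9 and 25.8 FPKM in Cxcr4+ macrophages, against 31.0, 33.9 and 29.7 FPKM in Cxcr4- macrophages. Fasn, fatty acid synthase, had 14.9, 18.4 and 13.0 FPKM in Cxcr4+ macrophages, against 16.4, 19.2 and 15.6 FPKM in Cxcr4- macrophages. In both genes the libraries numbered 2 were the highest of their group and the groups overlapped, with log2 fold changes of -0.14 ± 0.10 (SE) for Acly and -0.15 ± 0.12 (SE) for Fasn (edgeR adjusted p = 0.999 each). Acss2, which makes acetyl-CoA from acetate, the carboxylase Acaca, the elongase Elovl6 and Scd1 had log2 fold changes between -0.07 and 0.02. Acss2 overlaps 13800 bases of Gss on the opposite strand, with 1649 to 2074 counts per library beside the 1686 to 2280 of Acss2. The 7 enzymes together summed to 76.7, 90.4 and 135 FPKM in Cxcr4+ and 144, 151 and 147 FPKM in Cxcr4- macrophages. Without Scd2 the sums were 59.8, 72.2 and 57.4 FPKM in Cxcr4+ and 66.0, 73.0 and 64.9 FPKM in Cxcr4- macrophages, which overlap. Over all 32 members the sum was 321, 344 and 391 FPKM in Cxcr4+ and 394, 417 and 421 FPKM in Cxcr4- macrophages, and without Scd2 it was 304, 325 and 313 FPKM in Cxcr4+ and 316, 339 and 339 FPKM in Cxcr4- macrophages. The summed levels lay apart with Scd2 and overlapped without it.

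The libraries numbered 2 tended to be high in both groups. For 10 members, or 31.2%, both libraries numbered 2 were above all 4 others, among them Scap, Insig2, Fasn, Acly and Acaca, and for 3 members, or 9.38%, both were below, Acat2, Insig1 and Acss2. The shares over all genes tested were 26.2% above and 9.74% below. The members thus stood close to the genes at large in this respect.

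Other genes tied to the pathway gave 0 adjusted calls in each of 5 lists. Of 12 genes of SREBP processing and turnover, 6 had positive and 6 negative log2 fold changes, with a median of 0.02. Mbtps1, the protease that makes the initial cut of SREBPs in the Golgi, had 4.72, 5.02 and 4.32 FPKM in Cxcr4+ macrophages, against 5.43, 5.05 and 5.19 FPKM in Cxcr4- macrophages, lower without overlap but by a narrow gap (log2 fold change -0.17 ± 0.10 SE). Paqr3, a Golgi protein that tethers Scap, had 0.212, 0.343 and 0.359 FPKM in Cxcr4+ and 0.192, 0.181 and 0.170 FPKM in Cxcr4- macrophages, higher without overlap at a low level (log2 fold change 0.74 ± 0.27 SE, edgeR adjusted p = 0.998). Of 14 further targets of the SREBPs, 12 passed the filter on low counts, of which 5 were positive and 7 negative, with a median of -0.04. Slc25a1, the mitochondrial citrate carrier, had 38.3, 39.3 and 34.4 FPKM in Cxcr4+ and 41.7, 44.3 and 38.2 FPKM in Cxcr4- macrophages, and overlapped between the groups, as did the retinol dehydrogenase Rdh11.

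Of 14 genes of fatty acid elongation and activation, 12 passed the filter, of which 9 were positive and 3 negative, with a median log2 fold change of 0.09. Tecr, the reductase that ends each elongation round, had 47.4, 42.9 and 46.7 FPKM in Cxcr4+ macrophages, against 57.2, 50.6 and 58.5 FPKM in Cxcr4- macrophages. Every Cxcr4+ library was below every Cxcr4- library (log2 fold change -0.29 ± 0.12 SE). Hsd17b12, the ketoacyl reductase of the same cycle, had 28.7, 27.2 and 13.8 FPKM in Cxcr4+ and 23.4, 12.7 and 12.3 FPKM in Cxcr4- macrophages, so each group held both higher and lower libraries. Of 13 genes that use isoprenoids, such as the prenyltransferase subunit gene Rabggtb and the protease gene Rce1, 5 were positive and 8 negative, with a median of -0.07. Of 10 genes of the oxysterol response and sterol storage, 9 passed the filter, of which 6 were positive and 3 negative, with a median of 0.04. Soat1, which esterifies cholesterol for storage, had 19.2, 21.5 and 19.2 FPKM in Cxcr4+ and 17.0, 19.1 and 19.0 FPKM in Cxcr4- macrophages, and the exporter gene Abca1 was near 0 in every library.

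Proliferating cells draw on sterol synthesis for membrane, so 18 proliferation genes were read beside the members. This list too was chosen with earlier results of these data known. All 18 had positive log2 fold changes, with a median of 0.29, 0 adjusted calls and 9 at an unadjusted p under 0.05 by edgeR, where 4.85% of all genes tested passed and 49.9% had negative log2 fold changes. Their summed level was 350, 434 and 358 FPKM in Cxcr4+ macrophages, against 289, 341 and 296 FPKM in Cxcr4- macrophages. Pcna, the sliding clamp of DNA replication, had 106, 119 and 104 FPKM in Cxcr4+ and 84.0, 96.5 and 85.1 FPKM in Cxcr4- macrophages. Ccna2, a cyclin of S and G2 phase, had 11.04, 15.2 and 13.7 FPKM in Cxcr4+ and 8.29, 11.03 and 10.04 FPKM in Cxcr4- macrophages. Every Cxcr4+ library was above every Cxcr4- library in both genes, by a very narrow gap in Ccna2 (log2 fold change 0.44 ± 0.13 SE, edgeR adjusted p = 0.953). The lean of these genes was opposite in sign to the median of the members, -0.06, which ranged from -0.10 to -0.03 when each library was left out, and its part in the members' values was not tested.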

How the data were processed

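Total RNA of 6 macrophage libraries was sequenced. Per the submitters' processing notes, cutadapt, HISAT2, StringTie and GRCm39 were used, but their versions and the strand setting were not given. For each of 53647 genes the authors deposited an estimated count and an FPKM value per library. Counts were whole already (rounding changed 0), yet multiples of 4 made up 43.2% of those between 1 and 20 (25% if even), so a count is not always 1 read. FPKM was scaled by the authors to length and depth.

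Counts were tested with edgeR 4.0.16 in R 4.3.3 (quasi-likelihood, filterByExpr with minimum count 10 and total 15, TMM, group only), and p-values were Benjamini-Hochberg adjusted over 16031 genes. The SE is the size of the log2 fold change over the square root of F. DESeq2 1.42.0 and limma 3.58.1 were alternatives, and the count scripts were tested on simulated data. FPKM values and ratios were compared by exact permutation. For a repeated symbol, the row with the largest summed count was used. Full statistics were given for the regulators, members whose groups lay apart, the 12 of smallest p and the most abundant of each step; 2 genes were named per other list by smallest p. Members and lists were chosen with earlier results of these data known. Promoters are from RefSeq, on GRCm38.p6, and were not joined to GRCm39 coordinates.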

Additional observations from a re-analysis of the deposited data

How the results depend on the processing

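No member was called under any of 15 alternatives except Scd2, so the count of members ranged from 0 to 1 when each library was left out. The count over all genes was 5, and became 65 with DESeq2, 2 with limma on log2(FPKM + 1) and 1 to 9 with a library left out. The replicate number was also tried as a block, which gave 0 calls over all genes; same-numbered libraries correlated at 0.0383, 0.141 and 0.0451 in their deviations from the group means, and not every library correlated best with its own number, so the numbers were not taken as pairs. The regulators' median of -0.12 ranged from -0.19 to -0.0882 with a library left out and was -0.22 over the libraries numbered 1 and 3; the precursor enzymes' median of -0.08 ranged from -0.14 to -0.0112. With a library left out, the sterol enzymes' median of 0.03 ranged from -0.045 to 0.070 and so turned sign, the median over all members, -0.06, from -0.10 to -0.03, Idi1 from -0.35 to -0.06 and Lbr from 0.11 to 0.38. Insig1, at 0.01, turned to -0.0026 and -0.0035 with limma at pseudocounts of 1 and 0.1, to -0.0090 with that block, to -0.0097 where libraries numbered 2 alone formed one, and ranged from -0.15 to 0.21 with a library left out. Msmo1 ranged from -0.0309 to 0.46. The log2 difference in Srebf2 over Srebf1, -0.08, ranged from -0.16 to 0.022, and that in Insig1 over Insig2, -0.10, from -0.33 to 0.18. The cause of these changes was not tested. With 3 libraries a group, an exact test cannot go below 0.1. The common coefficient of variation over the genes tested was 0.275, but single genes differed. The SE of the log2 fold change was 0.10 for Srebf2 and 0.57 for Scd2. What size of difference the fit could detect was not tested.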

Other observations

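Mid1ip1, whose product activates the carboxylase Acaca and which is itself an SREBP target, was singled out after its values were seen because it also held a library far from the others of its group. It had 32.8, 35.6 and 13.0 FPKM in Cxcr4+ macrophages, against 34.8, 33.9 and 35.7 FPKM in Cxcr4- macrophages. The low library was Cxcr4+ replicate 3, the one in which Scd2 was high. Its edgeR log2 fold change was -0.37 ± 0.32 (SE), with an adjusted p of 0.9997. Cxcr4- replicate 1 was the lowest of all 6 libraries for 11 of the 32 members, the largest such count. Cxcr4- replicate 2 was the highest for 11 members and Cxcr4- replicate 3 for 9. The like shares over all genes were not computed.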
